A study of Mus musculus with 7 samples.

Results

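The Wnt and beta-catenin target genes described here are Glul, Oat, Rhbg, Axin2, Nkd1, Notum, Znrf3, Rnf43, Lgr5 and Tbx3, 10 of the 32285 genes measured. They were listed by name as known targets of the pathway, in a list drawn up with earlier results of these libraries known. Their levels were read, cell class by cell class, in 7 mouse liver libraries made by single-cell RNA sequencing.

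Canonical Wnt signaling acts by stabilizing beta-catenin, which enters the nucleus and switches on genes together with TCF and LEF factors. In the adult liver, endothelial cells around the central vein secrete Wnt ligands and R-spondin, and the hepatocytes nearest to that vein hold the pathway active. Those pericentral hepatocytes make glutamine through Glul, while hepatocytes around the portal vein make urea. Activating mutations of beta-catenin are the best known genetic lesion of human hepatoblastoma, a liver cancer of young children, and glutamine synthetase is stained in that disease as a read-out of the pathway.

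The labels call all 7 libraries liver of a hepatoblastoma murine model and give 0 groups, so no comparison between groups was tested, and each library is reported on its own under its title. In the text of the study, NEJ634, NEJ687, NEJ709 and NEJ723 are named as tumors, and 3 healthy livers are described, which leaves NEJ638, NEJ654 and NEJ677. The tumors came from ABC-Myc mice, in which Cre driven by the albumin promoter switches on a CAG-driven human MYC transgene in cells of the hepatocyte lineage on a C57BL/6J background. The controls were littermates without the full pair of transgenes, and the age of each animal was not given. The livers were dissociated with collagenase before capture. The description of the library titled NEJ709 carries the name NEJ634, and it was kept under its title here.

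The libraries held 40214395 to 132485391 UMIs (unique molecular identifiers, each a captured RNA molecule), and 72598 cells were analysed. Levels are UMIs of a gene summed over the cells of a class, per 1000000 UMIs of that class in a library (CPM), with exact Poisson 95% intervals in brackets that cover counting error only. Because the UMIs were read at the 3' end and not per length, levels are compared between libraries or cells and not between genes. Hepatocyte-lineage-like cells numbered 5781 in NEJ634, 312 in NEJ638, 302 in NEJ654, 148 in NEJ677, 236 in NEJ687 and 41 in NEJ709, while NEJ723 had 13 and was left out of their values. All 10 hepatocyte-lineage markers had UMIs in each of these 6 libraries. Their summed level was 96186 to 144716 CPM in NEJ638, NEJ654 and NEJ677 and 23459 to 27228 CPM in NEJ634, NEJ687 and NEJ709. Afp, the fetal albumin-like protein, stood at 1572 to 2420 CPM in the latter and at 2.01 to 9.30 CPM in the former. The cells were also of different clusters: cluster 32 held 312 of NEJ638, 299 of NEJ654 and 147 of NEJ677, and cluster 0 held 5413 of NEJ634, 233 of NEJ687 and 41 of NEJ709. Markers of other cells stood apart in NEJ634 and NEJ709 but not in NEJ687. The 7 neutrophil markers summed to 7416 CPM in NEJ634 and 6725 CPM in NEJ709 and to 4.80 to 308 CPM in the other 4, and erythroid markers to 41108 CPM in NEJ709 and 18961 CPM in NEJ634 against 2603 to 6264 CPM. In the 41 cells of NEJ709 the erythroid markers thus summed to more than the hepatocyte-lineage markers. All values of NEJ709 in this class are therefore those of cells that met the naming thresholds and not of the hepatocyte lineage as such. The part of these other markers in the levels below was not tested. Pairs of libraries shared 10 to 180 barcodes among analysed cells. In the hepatocyte-lineage-like cells these were at most 2.70% of a library except in NEJ709, where they were 4 of 41 cells, and without them Glul in NEJ709 was 160 CPM in place of 126 CPM.

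The targets of pericentral nitrogen metabolism were detected in the hepatocyte lineage of every library except for Rhbg. Glul, which encodes glutamine synthetase, lies at chr1:153899944-153909723 on the plus strand (GRCm38, the build of the annotation used). Its level was 500 CPM [461 to 540] in NEJ677, 319 CPM [298 to 342] in NEJ638, 222 CPM [216 to 227] in NEJ634, 163 CPM [151 to 175] in NEJ687, 126 CPM [99.1 to 157] in NEJ709 and 54.2 CPM [43.0 to 67.4] in NEJ654. The order did not follow the division by Afp, since NEJ677 and NEJ638 were at the top and NEJ654 at the bottom, and only the intervals of the neighbours NEJ687 and NEJ709 overlapped. The highest library exceeded the lowest by 9.22-fold [7.30 to 11.8]. This fold depends on which clusters were named: with the unnamed clusters of best hepatocyte markers joined, NEJ677 (1077 cells) was at 325 CPM and NEJ654 (682 cells) at 88.2 CPM, still the highest and the lowest, and the fold was 3.69 [3.20 to 4.27].

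Oat, the ornithine aminotransferase that feeds ornithine nitrogen toward glutamate, lies at chr7:132557478-132576398 on the minus strand. It stood at 326 CPM [305 to 349] in NEJ638, 212 CPM [187 to 239] in NEJ677 and 102 CPM [86.2 to 119] in NEJ654. In NEJ634 it was at 40.9 CPM [38.4 to 43.4], in NEJ709 at 35.9 CPM [22.5 to 54.3] and in NEJ687 at 33.3 CPM [28.1 to 39.1]. The former 3 libraries were separated from each other and from the rest, and the latter 3 could not be told apart. The highest library was 9.81-fold [8.22 to 11.8] above the lowest.

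Rhbg, an ammonium transporter of the basolateral membrane, lies at chr3:88242874-88254709 on the minus strand. It had 43 UMIs in NEJ677 (34.4 CPM [24.9 to 46.4]), 36 in NEJ638 (14.0 CPM [9.77 to 19.3]) and 10 in NEJ654 (6.69 CPM [3.21 to 12.3]), but 13 UMIs among 5781 cells of NEJ634 (0.505 CPM [0.269 to 0.863]) and 0 in NEJ687 and NEJ709. A count of 0 allows up to 3 UMIs, and against that limit NEJ677 was at least 7.04-fold higher than NEJ709, while the exact 95% interval of the ratio began at 5.48. Rhbg had 0 UMIs in the T/NK-like cells of all 7 libraries, in the endothelial-like cells of the 6 and in the mesenchymal-like cells of the 5 with at least 20 such cells. Some other classes held a few, the most being 4 in macrophage-like and 3 in monocyte-like cells over all libraries. In NEJ687 the monocyte-like cells had its highest level, at 0.383 CPM.

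**Figure D1:**
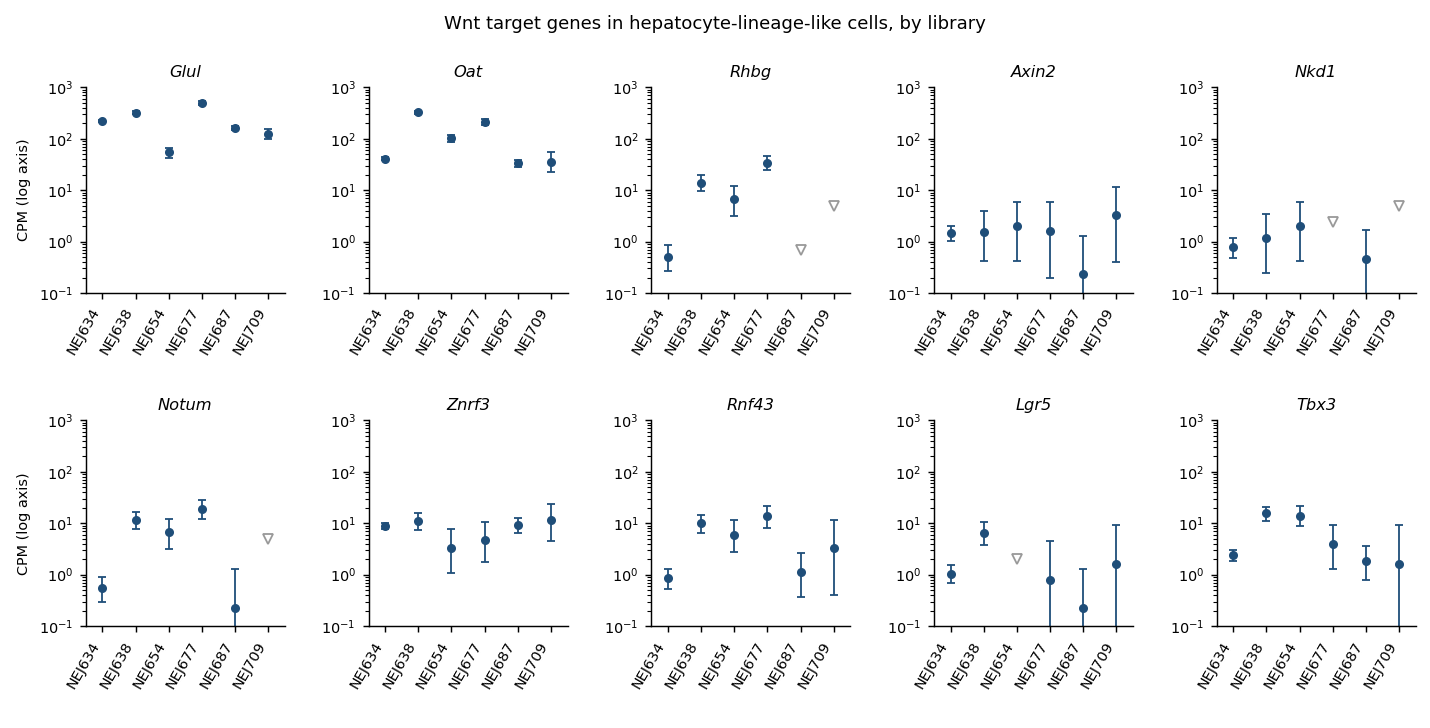
Level of each of the 10 genes in hepatocyte-lineage-like cells of 6 libraries, in CPM on a log axis. Points are pooled levels, bars are exact 95% Poisson intervals cut at the axis, and open triangles mark the limit of 3 UMIs where a gene had 0. NEJ638, NEJ654 and NEJ677 are the highest for Oat (102 to 326 CPM), Rhbg and Notum, whereas for Glul NEJ654 is the lowest at 54.2 CPM.

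The negative feedback genes of the pathway fell into different patterns. Notum, a secreted enzyme that removes the lipid of Wnt ligands (chr11:120653788-120661175, minus strand), was at 19.2 CPM [12.3 to 28.6] in NEJ677, 11.6 CPM [7.85 to 16.6] in NEJ638 and 6.69 CPM [3.21 to 12.3] in NEJ654. It was at 0.543 CPM [0.297 to 0.912] in NEJ634, had 1 UMI in NEJ687 and had 0 in NEJ709, so the third and the fourth library of its order were separate, as for Oat and Rhbg. For Rhbg and Notum the limit of 3 UMIs in NEJ709 was 4.89 CPM, which lay within the interval of NEJ654. Rnf43, a ubiquitin ligase that takes Frizzled receptors off the membrane (chr11:87662722-87735539, plus strand), was at 13.6 CPM [7.93 to 21.8] in NEJ677, 10.1 CPM [6.58 to 14.8] in NEJ638 and 6.02 CPM [2.75 to 11.4] in NEJ654. It stood at 3.26 CPM [0.395 to 11.8] from 2 UMIs in NEJ709, 1.15 CPM [0.372 to 2.68] in NEJ687 and 0.854 CPM [0.535 to 1.29] in NEJ634. The order was the same as that of Notum at its top, although the interval of NEJ709 overlapped that of NEJ654.

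Znrf3, the close relative of Rnf43 with the same action (chr11:5276324-5444847, minus strand), did not share this order. It was at 11.4 CPM [4.59 to 23.5] in NEJ709, 11.2 CPM [7.53 to 16.1] in NEJ638, 9.18 CPM [6.56 to 12.5] in NEJ687, 8.70 CPM [7.59 to 9.91] in NEJ634, 4.80 CPM [1.76 to 10.5] in NEJ677 and 3.35 CPM [1.09 to 7.81] in NEJ654, and the intervals of all neighbours overlapped. The ratio of the highest to the lowest was 3.41 [0.932 to 13.6].

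Axin2 and Nkd1, the most widely used read-outs of the pathway, were near the limit of detection in the hepatocyte lineage. Axin2, the scaffold that promotes destruction of beta-catenin (chr11:108920349-108950783, plus strand), ranged from 0.229 CPM with 1 UMI in NEJ687 to 3.26 CPM with 2 UMIs in NEJ709, and its highest count was 38 UMIs in NEJ634 (1.48 CPM [1.04 to 2.02]). Nkd1, an inhibitor that binds Dishevelled (chr8:88521354-88594884, plus strand), had at most 20 UMIs, in NEJ634 (0.776 CPM [0.474 to 1.20]), and 0 in NEJ677 and NEJ709. Of the 15 pairs of libraries, the interval of the ratio left out 1 for 1 pair in Axin2, NEJ634 over NEJ687 at 6.43 [1.09 to 261] from 38 and 1 UMIs, and for 0 pairs in Nkd1, with no adjustment for the number of pairs.

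The receptor and the transcription factor on the list were likewise low. Lgr5, a receptor of R-spondins (chr10:115450311-115587780, minus strand), was highest in NEJ638 at 6.59 CPM [3.84 to 10.6], where it had 17 UMIs. It was at 1.05 CPM [0.691 to 1.53] in NEJ634, had 1 UMI each in NEJ677, NEJ687 and NEJ709 and 0 in NEJ654. Tbx3, a T-box repressor found in pericentral hepatocytes and in hepatoblasts (chr5:119670669-119684724, plus strand), was at 15.5 CPM [11.1 to 21.1] in NEJ638 and 14.1 CPM [8.70 to 21.5] in NEJ654. It was at 4.0 CPM [1.30 to 9.34] in NEJ677, 2.37 CPM [1.81 to 3.04] in NEJ634, 1.84 CPM [0.792 to 3.62] in NEJ687 and 1.63 CPM in NEJ709 with 1 UMI. NEJ638 and NEJ654 stood above NEJ634 and NEJ687, whereas NEJ677 overlapped with them.

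Set side by side, 5 of the 10 genes had NEJ638, NEJ654 and NEJ677 as their 3 highest libraries, namely Oat, Rhbg, Notum, Rnf43 and Tbx3. Of the 9345 genes that reached 10 CPM in at least 1 library, 20.2% had the same order. Rhbg, Notum, Rnf43 and Tbx3 reached that level only in NEJ638, NEJ654 or NEJ677, so nothing is read from their count against this share, and the same limit holds for the lists below. By their levels alone, Oat, Rhbg and Notum had each of the 3 at least 2-fold above the others, as did 7.48% of genes. For Rhbg and Notum the limit of a count of 0 in NEJ709 was 4.89 CPM against 6.69 CPM in NEJ654, so for them this gap is not shown. None of the 7 members past 10 CPM had these libraries as its 3 lowest, an order that was found in 31.2% of genes. Members that passed only through these libraries could not have had it, so nothing is read from this either. The libraries also differ in cluster and marker levels as described above, and the part of these was not tested.

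Other zonated genes were read in the same cells. Of 8 other pericentral genes, 7 had NEJ638, NEJ654 and NEJ677 as the 3 highest libraries. Cyp2e1, the ethanol-metabolizing cytochrome, ranged from 11.7 CPM in NEJ687 to 2011 CPM in NEJ677, and Cyp1a2 from 5.28 to 445 CPM in the same libraries. Cyp2c29 and Cyp2a5 had 0 UMIs in NEJ709 and up to 1782 and 273 CPM in others, and both have near-identical paralogs between which reads may be divided. The pericentral genes summed to 4846, 2172 and 4193 CPM in NEJ638, NEJ654 and NEJ677 and to 92.3, 56.7 and 63.6 CPM in NEJ634, NEJ687 and NEJ709. In the 233 cells of cluster 0 in NEJ687, without its 3 cells of cluster 32, the sum was 28.3 CPM. Of 11 periportal genes, which mark the opposite zone, 9 had the same 3 libraries highest, but their sums were closer, at 7813 to 9831 CPM against 3563 to 4559 CPM. Ass1 and Cps1 of the urea cycle were among them, with lowest levels of 1453 CPM in NEJ634 and 553 CPM in NEJ709.

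Upstream genes of the pathway were divided over this order, which 20.2% of genes had, and the opposite one, which 31.2% had. Of 8 transducers, 7 reached 10 CPM, 0 had these 3 libraries highest and 2 (Axin1 and Apc) had them lowest. Beta-catenin itself (Ctnnb1) stood between 70.5 CPM in NEJ677 and 170 CPM in NEJ638. Gsk3b, the kinase that marks it for destruction, was at 40.2 to 70.1 CPM, Csnk1a1 at 91.7 to 229 CPM and the scaffold Apc at 20.2 to 39.8 CPM. Among 13 receptors, 8 reached 10 CPM and 5 of them had this order (Fzd7, Lgr4, Fzd4, Fzd8 and Lrp5), while Fzd5 and Ryk had the opposite one. Lrp6, a coreceptor, ranged only from 51.8 to 71.3 CPM. Of 11 ligands, 3 reached 10 CPM, of which Wnt2 had this order and Wnt4 the opposite one, with 30.6, 67.0 and 62.0 CPM in NEJ634, NEJ687 and NEJ709 and 0.388, 2.01 and 0.801 CPM in NEJ638, NEJ654 and NEJ677. None of the 9 secreted inhibitors or of the 2 secretion genes reached 10 CPM, and Wif1 was the highest of the former at up to 6.52 CPM. Of 5 other targets, Ccnd1 had NEJ638, NEJ654 and NEJ677 highest, whereas Myc had the opposite order, with 4.0 CPM in NEJ677 and 91.9 CPM in NEJ634. The counts of Myc are those assigned to the mouse gene in the reference used, which lists no human transgene. Whether RNA of the human MYC transgene was counted under it was not tested, so this level cannot be credited to the mouse gene alone.

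Cells of both clusters were also present within a library, in NEJ634 and, with very few of cluster 32, in NEJ687. In NEJ634, 107 cells fell into cluster 32 beside the 5413 of cluster 0. Oat was at 208 CPM in the former and 37.1 CPM in the latter, Tbx3 at 15.8 and 1.97 CPM, Rhbg at 3.15 and 0.461 CPM, Notum at 3.15 and 0.503 CPM and the pericentral sum at 1336 and 59.8 CPM. Cluster 32 of NEJ634 held only 633967 UMIs in all, so its levels of Rhbg and Notum rest on very few UMIs. Rnf43 had 0 UMIs in cluster 32 and was at 0.754 CPM in cluster 0, and Znrf3, which did not share the order between libraries, was at 18.9 and 8.59 CPM. Glul was at 169 CPM in cluster 32 and 222 CPM in cluster 0. Alb was at 11695 against 4067 CPM and Afp at 1361 against 2508 CPM. These values are a description, since the clusters were formed from the same cells. A further cluster led by hepatocyte genes such as Adh4, Aox3 and Fabp1 (cluster 34) missed the naming thresholds. Its Glul was at 282 CPM in 789 cells of NEJ677 and 164 CPM in 236 cells of NEJ654, its Oat at 177 and 277 CPM, and its Rhbg had 0 UMIs in both.

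The spread of Glul over the cells was read next. The 10% of hepatocyte-lineage-like cells with the most Glul UMIs carried 93.1% of them in NEJ677, 85.2% in NEJ654 and 69.1% in NEJ638, against 49.9% in NEJ634, 49.4% in NEJ687 and 62.3% in NEJ709. These shares move with the number of UMIs and were not thinned, and in NEJ654 they rest on 81 UMIs in 42 cells, 34 of them in 1 cell. A UMI of Glul was found in 31.8%, 13.9% and 49.4% of the cells of the former and in 48.2%, 67.4% and 48.8% of the latter. After thinning every cell to 500 UMIs these shares were 8.11%, 4.30% and 8.97% and 10.6%, 10.2% and 2.44%. In the lymphocytes, read for comparison, the thinned share was 1.63% to 5.38% in T/NK-like and 1.49% to 5.45% in B-like cells, so the shares of NEJ654 and NEJ709 were within that range. The range is over libraries, and how much of the Glul of lymphocytes is free RNA was not tested. Median depths were 2440.5 to 15413.5 UMIs in the hepatocyte-lineage-like cells and 1278 to 7725 UMIs in the lymphocytes.

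Cells with a UMI of Glul were then compared with those without, within each library, for the other 9 genes. Oat was 48.6-fold [23.2 to 122] higher in the 47 Glul-positive cells of NEJ677 than in its 101 negative cells, 6.47-fold [5.11 to 8.29] higher in the 154 of NEJ638 against 158, and 2.08-fold [1.48 to 2.91] higher in the 42 of NEJ654 against 260. In NEJ634 the ratio was 1.21 [1.06 to 1.38] over 2786 and 2995 cells, in NEJ687 0.873 [0.510 to 1.60] over 159 and 77 cells and in NEJ709 0.934 [0.275 to 4.93] over 20 and 21 cells. The intervals of NEJ638, NEJ654 and NEJ677 lay above that of NEJ634, and those of NEJ687 and NEJ709 included 1. The cells of NEJ634 were of several clusters, and in the 5413 cells of cluster 0 alone its ratio was 1.04 [0.903 to 1.19], so that 0 of 9 members then had an interval above 1 in that library. The share of all genes with such an interval was read over all clusters of NEJ634 only, where it was 44.2% for genes of at least 50 CPM.

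Rhbg had 43 UMIs in the positive and 0 in the negative cells of NEJ677, 35 and 1 in NEJ638 and 7 and 3 in NEJ654, where the ratio was 7.24 [1.65 to 43.4]. In NEJ634 it had 10 and 3 UMIs, a ratio of 1.94 [0.499 to 10.96]. Tbx3 was 4.56-fold [1.78 to 14.9] higher in the positive cells of NEJ638 and 4.13-fold [1.60 to 11.1] higher in those of NEJ654. Rnf43 and Lgr5 were higher in the positive cells of NEJ638 at 3.58-fold [1.22 to 14.3] and 4.89-fold [1.14 to 44.0], but in the deeper cells of that library both intervals included 1, at 2.58-fold [0.869 to 10.3] and 2.45-fold [0.523 to 23.0]. Notum, which had 0 UMIs in NEJ709, was not separated by Glul in any other library, with ratios of 1.13 [0.509 to 2.62] in NEJ638 and 1.56 [0.644 to 3.84] in NEJ677.

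Counted over the list, the interval lay above 1 for 5 of 9 members in NEJ638, 3 in NEJ654, 2 in NEJ677, 1 in NEJ634 and 0 in NEJ687 and NEJ709. A member with 0 UMIs in a library, such as Rhbg, Nkd1 and Notum in NEJ709, has no interval there and cannot be counted as above 1. Among all genes of at least 50 CPM, it lay above 1 for 13.4%, 8.9%, 33.2%, 44.2%, 9.12% and 22.6% in the same order, with NEJ687 before NEJ709. Most members were below that level, so their counts had less power than the genes in this background. The Glul-positive cells had more UMIs, with a median of 11032 against 5308 in NEJ677, 3817 against 2602 in NEJ634 and 23760 against 1975 in NEJ687, and the effect of this on the ratios was not tested beyond the deeper cells given below. In the cells at or above the median depth of their library, Glul separated 3, 3, 2 and 1 members in NEJ638, NEJ654, NEJ677 and NEJ634, and the other 2 libraries had too few cells. The shares of all genes above are for all hepatocyte-lineage-like cells and not for these deeper ones, so these counts are a description only.

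The zonated genes went apart along the same division. All 8 pericentral genes were higher in the Glul-positive cells of NEJ638 and NEJ677 and 7 of 8 in NEJ654, where 13.4%, 33.2% and 8.9% of all genes were higher, and all 11 periportal genes were lower in NEJ638 and NEJ677 and 8 of 11 in NEJ654, where 9.91%, 7.39% and 5.48% were lower. Cyp2e1 was 3.07-fold [2.85 to 3.3] higher in NEJ638, 4.19-fold [3.82 to 4.60] in NEJ677 and 3.01-fold [2.68 to 3.37] in NEJ654. Ass1 was at 0.612-fold [0.583 to 0.642], 0.814-fold [0.752 to 0.88] and 0.856-fold [0.803 to 0.912]. In NEJ634, 4 pericentral genes were higher, with Cyp2e1 at 1.51-fold [1.28 to 1.79], and 5 periportal genes were higher and 1 was lower, where 44.2% of all genes were higher and 11.1% lower. In cluster 0 of NEJ634 alone, without its cells of cluster 32 and others, 4 pericentral genes were higher (Cyp2e1 at 1.46-fold [1.19 to 1.79]) and 1 was lower (Cyp2c29 at 0.514-fold [0.386 to 0.684]), and 6 periportal genes were higher and 1 lower. In the deeper cells of NEJ634, 4 pericentral genes were higher and 1 lower (Cyp2c29 at 0.815-fold [0.679 to 0.98]), and 2 periportal genes were higher and 1 lower. In those of NEJ638, NEJ677 and NEJ654, 7, 8 and 7 of 8 pericentral genes were higher and 11, 11 and 10 of 11 periportal genes lower. No share of all genes stands beside the counts of cluster 0 alone or of the deeper cells. In NEJ709, 7 of 11 periportal genes were higher and 0 lower, against 22.6% of all genes higher and 12.9% lower. In NEJ687, 3 pericentral genes were lower, against 6.99% of all genes. Without its 3 cells of cluster 32, 1 of them Glul-positive and 2 Glul-negative, no pericentral or periportal interval left out 1. Slc1a2 then had 0 UMIs on both sides and no interval. Of the pericentral genes only Cyp2c29 (4 UMIs) and Lect2 (1 UMI) had UMIs in the negative cells, so these intervals cannot show an absence of zonation.

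**Figure D2:**
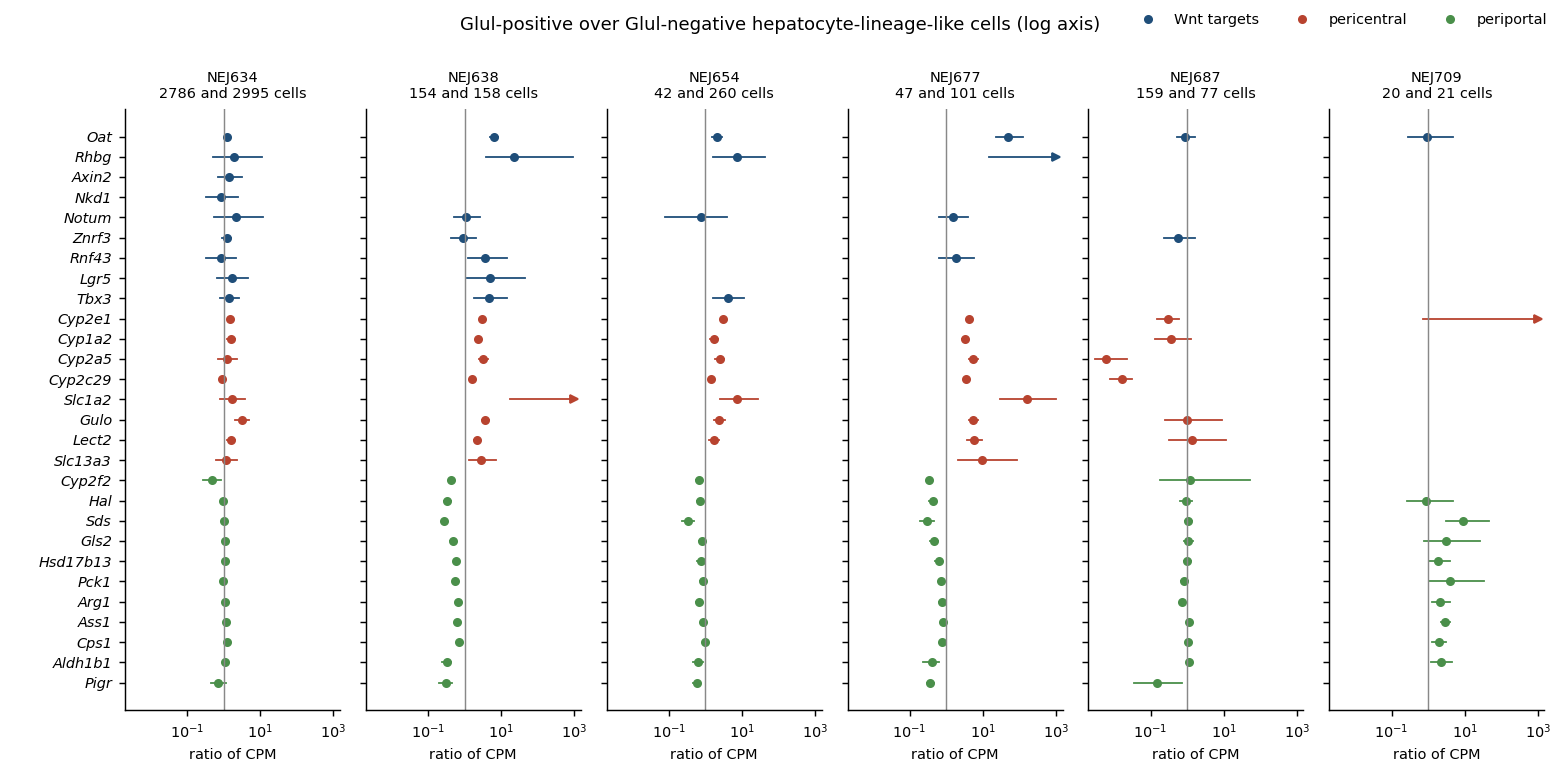
Ratio of the level in Glul-positive to that in Glul-negative hepatocyte-lineage-like cells of each of 6 libraries, on a log axis, for the Wnt targets (blue), other pericentral genes (red) and periportal genes (green). Bars are 95% intervals cut at 0.003 and 1000, arrowheads mark genes with 0 UMIs in negative cells, and genes with under 10 UMIs are left out. In NEJ638, NEJ654 and NEJ677 the red points lie above 1 and most green points below it, and Oat lies at 6.47, 2.08 and 48.6, while in NEJ634 Oat is at 1.21.

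Genes higher in the Glul-positive cells of every library were sought among the 1415 genes of at least 50 CPM in the positive cells of all 6, a level that none of the other 9 members reached. The highest smallest ratio was that of Chka, a choline kinase, at 1.25, followed by the canalicular transporter Abcc2 (1.21), Timm8a1 (1.19), the metallothionein Mt1 (1.18), Csrp2 (1.17), the lipid droplet protein Plin2 (1.16), Timm50 (1.15), Trap1 (1.14), Aldh9a1 (1.14) and Wasl (1.13). Oat did not reach that level in the positive cells of NEJ634, NEJ687 and NEJ709. The genes listed were picked as the highest of the 1415, and no intervals are given for their ratios. None is thus shown to exceed 1 in every library, and in NEJ634 44.2% of genes of at least 50 CPM had an interval above 1.

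In endothelial cells, a source of Wnt ligands in the liver lobule, Nkd1 had intervals that were separate between libraries before ambient RNA was subtracted. The endothelial-like cells numbered 2156 in NEJ638, 1526 in NEJ634, 1378 in NEJ677, 1202 in NEJ654, 104 in NEJ687 and 83 in NEJ723, while NEJ709 had 14 and was left out. The thresholds for naming clusters were set after the data were seen, and with a lead of 1 in place of 0.5 NEJ634 kept 49 cells and NEJ723 25. In NEJ634 the markers went against the name, since 7 neutrophil markers summed to 9723 CPM in these cells and the 10 endothelial markers to 4496 CPM, and 1477 of the 1526 cells were of cluster 10. All values of NEJ634 in this class are therefore those of cells that met the naming thresholds and not of endothelium as such. In NEJ687 and NEJ723 erythroid markers exceeded the endothelial ones, with values given below. Nkd1 stood at 46.3 CPM [41.2 to 51.8] in NEJ677, 44.2 CPM [38.2 to 50.8] in NEJ654 and 42.6 CPM [37.5 to 48.2] in NEJ638. It was at 13.8 CPM [6.91 to 24.8] in NEJ687, 7.18 CPM [4.94 to 10.1] in NEJ634 and 5.58 CPM [1.15 to 16.3] in NEJ723. The former 3 could not be told apart, and their intervals were separate from those of the latter. With the lead of 1, Nkd1 was at 21.8 CPM in NEJ634, 19.5 CPM in NEJ687 and 6.92 CPM in NEJ723 and at 42.8 to 46.4 CPM in the former 3. Nkd1 was 1 of the 3 members that reached 10 CPM, and its order was shared by 26.4% of 10256 genes, or 1.98% with a gap of at least 2-fold. With the lead of 1 its gap was under 2-fold, at 42.8 CPM in NEJ638 against 21.8 CPM in NEJ634. None of the 3 members had these libraries as its 3 lowest, against 11.6% of genes, which is too few members to read anything from.

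Markers of endothelial and of other cells differed between the same libraries. The 10 endothelial markers summed to 13911 to 16505 CPM in NEJ638, NEJ654 and NEJ677 and to 4496, 8708 and 7407 CPM in NEJ634, NEJ687 and NEJ723, and Kdr, a VEGF receptor, stood at 1449 to 1718 CPM and 456 to 731 CPM. Single markers went otherwise, since Lyve1 was at 1208 CPM in NEJ723 and 929 CPM in NEJ687 against 269 to 433 CPM in the other 4, and Pecam1 at 523 CPM in NEJ723 against 501 CPM in NEJ638. Macrophage markers in the same cells summed to 3023, 3679 and 1612 CPM in NEJ634, NEJ687 and NEJ723 against 211 to 740 CPM. Erythroid markers summed to 46789, 23775 and 53340 CPM in the same order against 1762 to 9438 CPM, and neutrophil markers to 307 CPM in NEJ687 and 207 CPM in NEJ723, beside the value of NEJ634 above, against 18.3 to 130 CPM. In NEJ634, NEJ687 and NEJ723 the erythroid markers thus summed to more than the endothelial markers. The values of NEJ687 and NEJ723, like those of NEJ634, are therefore those of cells that met the naming thresholds. The part of these other markers in the level of Nkd1 or of the other genes read in this class was not tested. The share of UMIs attributed to the ambient profile, estimated from haemoglobin genes, was 79.3% in NEJ634, 90% in NEJ723, which is the highest share allowed, and 63.8% in NEJ638, and 5.24% to 20.2% in the other 3. After subtraction Nkd1 was at 28.2 CPM in NEJ634, 53.4 CPM in NEJ723 and 109 CPM in NEJ638, so that NEJ723 then ranked above NEJ654 and NEJ677. Kdr was then at 4757 CPM in NEJ723, 3909 CPM in NEJ638 and 2037 CPM in NEJ634 and at 906 to 1855 CPM in the other 3. In NEJ723, NEJ634 and NEJ638 all genes read after subtraction rose together, in NEJ723 Kdr from 480 CPM and Nkd1 from 5.58 CPM to the levels above. The ranks of these libraries after subtraction are thus not particular to a gene. In NEJ634, Nkd1 was at 5.19 CPM [3.21 to 7.94] in the 1477 cells of cluster 10 and 23.5 CPM [12.1 to 41.0] in the 44 cells of cluster 17, the cluster that held most endothelial-like cells of NEJ654 and NEJ677.

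Glul in endothelial-like cells, without subtraction, was at 298 CPM [253 to 348] in NEJ723, 289 CPM [253 to 329] in NEJ687, 269 CPM [257 to 282] in NEJ677, 254 CPM [239 to 269] in NEJ634, 241 CPM [228 to 254] in NEJ638 and 234 CPM [220 to 249] in NEJ654. All neighbours overlapped, and the highest was 1.27-fold [1.07 to 1.5] above the lowest. After subtraction it was at 2546 CPM in NEJ723, where all genes read rose together. It was then at 564 CPM in NEJ634, 543 CPM in NEJ638, 336 CPM in NEJ687, 277 CPM in NEJ677 and 240 CPM in NEJ654, and no longer close to even. All genes read rose together in NEJ634 and NEJ638 too, Kdr from 456 to 2037 CPM and from 1449 to 3909 CPM. This unevenness is thus not particular to Glul. With the naming lead of 1 Glul was at 407 CPM in NEJ634. Oat was at 22.3 to 66.6 CPM. Axin2 was at up to 3.58 CPM, with 21 UMIs each in NEJ638 and NEJ677 and 0 in NEJ687 and NEJ723. Rhbg had 0 UMIs in each of the 6 libraries, and Notum, Znrf3, Rnf43, Lgr5 and Tbx3 were at up to 3.72 CPM.

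The 11 ligands on the list summed to 354, 576 and 850 CPM in the endothelial-like cells of NEJ638, NEJ654 and NEJ677. In the mesenchymal-like cells of these libraries they summed to 584, 826 and 968 CPM. In NEJ723 and NEJ634 the sums were 229 and 96.4 CPM in the former class and 44.6 and 86.0 CPM in the latter. The endothelial-like levels of single ligands follow. Wnt2 stood at 381 CPM [366 to 396] in NEJ677, 343 CPM [326 to 360] in NEJ654, 228 CPM [216 to 240] in NEJ638, 84.3 CPM [65.3 to 107] in NEJ687, 54.0 CPM [36.1 to 77.5] in NEJ723 and 20.7 CPM [16.7 to 25.3] in NEJ634. Rspo3, an R-spondin, was at 421 CPM in NEJ677, 213 CPM in NEJ654, 149 CPM in NEJ723, 112 CPM in NEJ638, 62.9 CPM in NEJ634 and 34.0 CPM in NEJ687. Wnt9b was at 42.9 CPM in NEJ677, 22.3 CPM in NEJ723, 15.5 CPM in NEJ654, 10.2 CPM in NEJ638, 5.03 CPM in NEJ687 and 3.27 CPM in NEJ634. Only Wnt2 of the 3 ligands past 10 CPM had NEJ638, NEJ654 and NEJ677 as its 3 highest libraries, and for Rspo3 and Wnt9b NEJ723 lay above NEJ638. With the lead of 1 Wnt2 kept this order, with 40.02, 103 and 72.7 CPM in NEJ634, NEJ687 and NEJ723 against 228 to 382 CPM. After ambient subtraction it did not, at 609 CPM in NEJ638, 535 CPM in NEJ723, 415 CPM in NEJ677, 360 CPM in NEJ654, 103 CPM in NEJ687 and 89.0 CPM in NEJ634. Rspo3 and Wnt9b were then highest in NEJ723, at 1486 and 222 CPM, where all genes read rose together. Of the 7 receptors past 10 CPM 4 had this order, and of the 8 transducers 4, beside 26.4% of genes, and with a gap of at least 2-fold the counts were 0 of 7 and 0 of 8 beside 1.98%. Wls, the carrier that Wnt ligands need for secretion, also had this order and ranged from 39.6 CPM in NEJ634 to 178 CPM in NEJ638, but lost it with the lead of 1, where NEJ723 (128 CPM) lay above NEJ654 (106 CPM), and after subtraction, where NEJ723 was at 874 CPM.

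**Figure D3:**
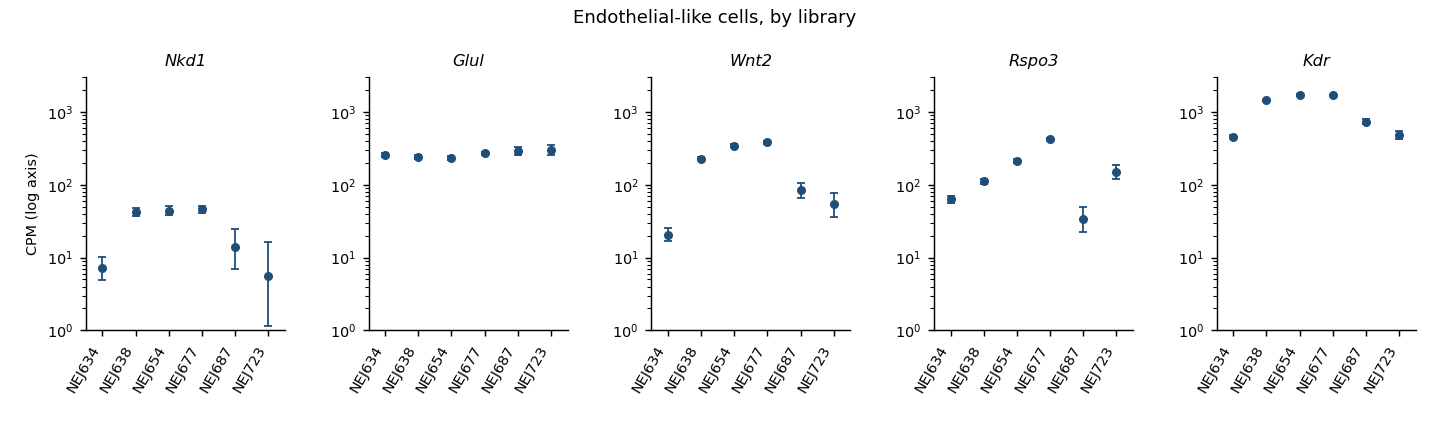
Levels of Nkd1, Glul, the ligands Wnt2 and Rspo3 and the endothelial marker Kdr in endothelial-like cells of 6 libraries, in CPM on a log axis with exact 95% Poisson intervals. Nkd1 is at 42.6 to 46.3 CPM in NEJ638, NEJ654 and NEJ677 and at 5.58 to 13.8 CPM in NEJ634, NEJ687 and NEJ723, Kdr has the same 3 libraries highest, and Glul is at 234 to 298 CPM. The levels are without ambient subtraction, after which Nkd1 and Kdr no longer have these libraries highest and Glul is at 240 to 2546 CPM. All these genes rise together in NEJ723, and less so in NEJ634 and NEJ638, after subtraction.

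Mesenchymal-like cells carried Nkd1 as well, at 108 CPM in NEJ677, 82.9 CPM in NEJ654, 62.1 CPM in NEJ638, 37.1 CPM with 5 UMIs in NEJ723 and 9.56 CPM with 3 UMIs in NEJ634. Those cells also held Kdr at 309 to 732 CPM, and its part was not tested. Macrophage-like cells had Glul at 244 to 506 CPM in the 7 libraries, and their level was the highest of any class in 6 of 7, with NEJ677 the exception, where the hepatocyte lineage stood at 500 CPM against 336 CPM. In 2 of those 6 its interval was separate from that of the next class. The cells of cluster 1, which was led by Cldn7, Cldn6 and Epcam and met the thresholds for cholangiocyte-like, numbered 397 in NEJ723 and carried Glul at 39.4 CPM, Oat at 16.4 CPM and Znrf3 at 9.64 CPM in that library, with Rhbg at 0 UMIs. These cells also held Afp at 2006 CPM and Alb at 1894 CPM, and the 10 hepatocyte-lineage markers summed to 10475 CPM beside 963 CPM for the 7 cholangiocyte markers, so markers of both classes were present in them, and 47 of them shared a barcode with another library. B-like cells had Glul at 60.6 to 96.4 CPM and Oat at 49.9 to 120 CPM and at most 9.72 CPM of any other member. Over 84 pools of a class in a library, the genes whose log2 levels followed Glul most closely were Mertk (Pearson r = 0.74), Slc29a1 (0.73), Tspan4 (0.73), Tspan15 (0.72) and Colec12 (0.71) of 6103 genes. These values describe pools that share libraries, depth and ambient RNA and carry no test.

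**Figure D4:**
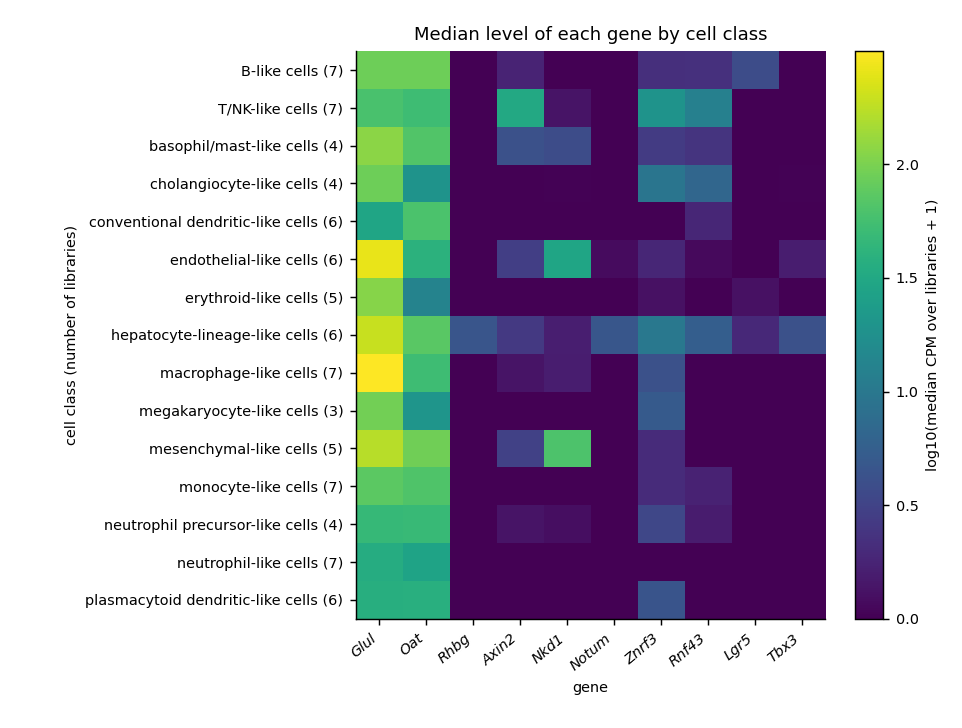
Heatmap of the median level over libraries, as log10 of CPM + 1, of each of the 10 genes in each named cell class, with the number of libraries in brackets. Glul is spread over macrophage-like, endothelial-like and hepatocyte-lineage-like cells with medians of 314, 261 and 192 CPM, Axin2 stands out in T/NK-like cells at 31.0 CPM, Nkd1 in mesenchymal-like and endothelial-like cells at 62.1 and 28.2 CPM, and Rhbg in the hepatocyte lineage at 3.60 CPM.

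T/NK-like cells, and not the hepatocytes, had the highest Axin2, while B-like cells had at most 4.38 CPM. In T/NK-like cells, it was at 51.9 CPM in NEJ638, 48.3 CPM in NEJ634, 39.2 CPM in NEJ709, 31.0 CPM in NEJ654, 30.8 CPM in NEJ677, 18.8 CPM in NEJ687 and 14.95 CPM in NEJ723. This was the highest level of any named class in 7 of 7 libraries, and in 4 of them its interval was separate from that of the next class. Znrf3 was also highest there in 7 of 7, at 13.1 to 29.9 CPM, with 2 separate. Rnf43 was at 7.54 to 14.1 CPM and highest in 5 of 7, with 1 separate.

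These cells formed 2 clusters, and Axin2 and Rnf43 were divided between them. Cluster 14 was led by T cell genes and held Lef1, the lymphoid partner of beta-catenin, at 101 to 444 CPM, and cluster 15 was led by genes of natural killer cells and held it at 21.9 to 52.4 CPM. Axin2 was higher in cluster 14 in 6 of 6 libraries with at least 20 cells of both, and the intervals were separate in NEJ654, where it was at 40.9 CPM [30.3 to 54.1] and 12.5 CPM [5.38 to 24.5], and in NEJ687, at 30.7 CPM [19.0 to 46.9] and 9.90 CPM [4.53 to 18.8]. Rnf43 was higher in cluster 15 in 6 of 6, with separate intervals in 4 of them. It was at 3.20 CPM [0.387 to 11.5] and 27.4 CPM [14.99 to 46.0] in NEJ638 and at 5.37 CPM [2.57 to 9.87] and 24.4 CPM [15.1 to 37.4] in NEJ677. No order between the clusters is read for Znrf3, and no share of all genes that differ between them stands beside these counts. The members and Lef1 had not been used in forming the clusters.

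**Figure D5:**
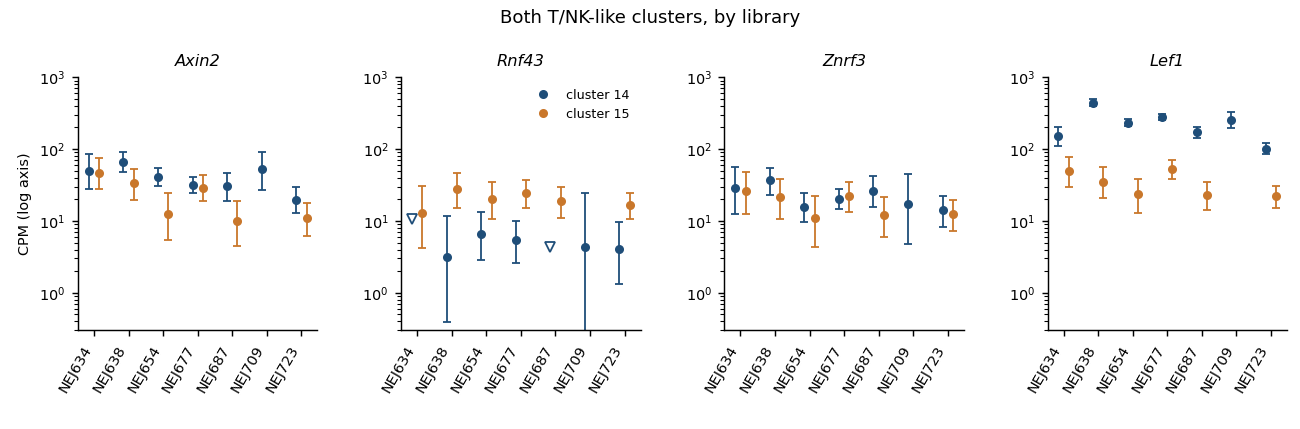
Levels of Axin2, Rnf43, Znrf3 and Lef1 in the T cell cluster 14 and the natural killer cell cluster 15 by library, in CPM on a log axis with exact 95% Poisson intervals, where open triangles mark the limit of 3 UMIs for a count of 0. Lef1 and Axin2 are higher in cluster 14 and Rnf43 in cluster 15 in each of the 6 libraries with both, for example 27.4 against 3.20 CPM for Rnf43 in NEJ638.

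Free RNA held the members that most cells held. The ambient profile, the sum of near-empty droplets, had Glul at 48.0 to 183 CPM and Oat at 14.5 to 134 CPM over the 7 libraries. In NEJ654 the ambient levels of Glul (127 CPM) and Oat (134 CPM) were above those of its hepatocyte-lineage-like cells (54.2 and 102 CPM). Rhbg was at 1.62 to 1.97 CPM in the ambient profiles of NEJ638, NEJ654 and NEJ677, below the level in their hepatocytes. After subtraction of this profile, Oat was at 388, 96.6 and 223 CPM in NEJ638, NEJ654 and NEJ677 and at 32.7 to 40.02 CPM in NEJ634, NEJ687 and NEJ709.

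The members were looked up in a table of 300-base RefSeq promoter windows (GRCm38.p6), each from 250 bases before to 50 after a start site. Glul, Oat, Axin2, Nkd1 and Rnf43 had a window. The core letters bound by TCF and LEF factors, CTTTGA on either strand, were in none of them and in 16.0% of the 32851 windows of the table. Rhbg, Notum, Znrf3, Lgr5 and Tbx3 had no entry. So few windows cannot set an absence apart from that share, and sites outside the windows or with other letters were not searched.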

How the data were processed

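For each of the 7 libraries the authors deposited unnormalized counts, the UMIs of a gene in a barcode, for all barcodes including empty droplets. The labels name Cell Ranger 6.0, which the study ran with introns counted, whereas the file headers name release 4. The genome build of the single-cell libraries is not given in the sources used here, and coordinates are those of GENCODE M21. The depth of each library sets the width of the Poisson intervals.

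Cells were called from the deposited counts by a high-UMI rule and a test against the ambient profile (barcodes ranked 45000 to 90000, 10000 draws, false discovery rate 0.01). Cells were required to hold more than 500 UMIs, of which no more than 20% were mitochondrial, and those with the highest Scrublet scores were removed at 0.8% per 1000 cells. Clustering (scanpy 1.11.5, Leiden, resolution 1) used 2000 variable genes without the members and the pathway and zonation genes. Clusters were named "-like" from markers of 16 classes by log2 fold over all other cells. The mean over the markers of a class had to be at least 1.5, with a lead of 0.5 over the next class. In addition, 3 markers or more had to be up by at least 1 in log2 at 10 CPM. Among the 10 top genes of a cluster, markers of another class could not outnumber its own. Shallow clusters with no own marker among those genes were left unnamed. These naming thresholds were set after seeing the data. The clusters they kept out of the hepatocyte and endothelial classes were cluster 34 (789 cells of NEJ677, 236 of NEJ654 and 36 of NEJ687), cluster 18 (1109 of NEJ654, 482 of NEJ677 and 58 of NEJ638) and cluster 12 (144 of NEJ654, 140 of NEJ677 and 75 of NEJ687). Cells of unnamed clusters were 93.7% of NEJ709, 53.2% of NEJ723 and 25.6% to 38.6% of the others. At most 20000 barcodes per library were tested, a limit reached in NEJ634, NEJ709 and NEJ723. A class in a library needed 20 cells.

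Levels were summed UMIs per 1000000 UMIs, with exact Poisson intervals (scipy 1.17.1) at 95%. Ratios had exact conditional intervals, and shares of cells exact Clopper-Pearson intervals after thinning to 500 UMIs. The intervals cover counting error only. The order of libraries was tabulated for all genes of at least 10 CPM in a library, and the Glul comparison for all genes of at least 50 CPM. The labels give 0 groups, so no test between groups and no mean over libraries was made. The genes named were the 10 members, up to 4 genes per list with the highest levels first, the genes that single out an order, which were chosen after their values were seen, and those most like Glul. The members and lists were chosen with earlier results of these data known. Alternatives changed the calling rule, doublets, clustering, naming, CPM total, weighting, ambient subtraction, thinning and the Glul threshold.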

Additional observations from a re-analysis of the deposited data

Results flagged for a closer look

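Glul was also found outside the analysed cells. In barcodes of over 500 UMIs that were not called as cells, its level was 163 CPM in NEJ634 (46753 barcodes), 111 CPM in NEJ677 (239 barcodes), 91.2 CPM in NEJ654 (422 barcodes), 61.6 CPM in NEJ709 (10195 barcodes), 53.6 CPM in NEJ723 (9580 barcodes) and 51.4 CPM in NEJ687 (837 barcodes). Each was above the limit that a count of 0 allows, which is what drew attention to it. NEJ638 had no such barcodes. The limit of 20000 tested barcodes left 48463 untested in NEJ634, 16117 in NEJ723 and 2814 in NEJ709, counted before the mitochondrial filter. In NEJ634, 18159 of the 20000 tested were called as cells, so barcodes not called there may hold cells. No control samples are labelled, and the source of this RNA was not tested.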

How the results depend on the processing

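The median level over libraries was 192 CPM for Glul and 71.3 CPM for Oat in hepatocyte-lineage-like cells, with 188 to 225 CPM and 58.5 to 103 CPM under the alternatives, and 28.2 CPM for Nkd1 in endothelial-like cells, with 24.8 to 48.2 CPM. The libraries behind these values were not the same throughout, since NEJ709 had 9 hepatocyte-lineage-like cells with the high-UMI calling rule or at Leiden resolution 2 and 11 with every barcode over 500 UMIs, and NEJ723 had 137 with classes set cell by cell. Of all values recomputed, 38 of 195 moved beyond their error as a mean over cells, 32 of 195 without haemoglobin and mitochondrial UMIs, 31 of 125 with the ambient profile subtracted, 23 of 180 with the high-UMI calling rule and 17 of 131 with classes set cell by cell. The number of members with the same 3 highest libraries was 5 in hepatocyte-lineage-like cells and 4 to 6 under the alternatives. In endothelial-like cells it was 2 of all 10 members (Nkd1 and Axin2, the latter from few UMIs and below 10 CPM). It was 1 with classes set cell by cell and with the ambient profile subtracted, and the cause was not tested. It was 2 or 3 under the other alternatives. Of all genes of at least 10 CPM in these cells 26.4% had this order. Of the 3 members past that level 1 had it, so nothing is read from the count. In the largest cluster of each library alone, the Oat ratio by Glul in NEJ634 went from 1.21 to 1.04. The share of all genes with that order in hepatocyte-lineage-like cells moved from 20.2% to 31.2% for genes of at least 100 CPM, a level that 2 members reached, of which 1 (Oat) had the order. No paired analysis was possible because the labels give no groups and no replicate numbers. The counts of Axin2, Nkd1 and Lgr5 in the hepatocyte lineage were at most 38 UMIs in a library, and the part of depth in this was not tested.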
